A study of Mus musculus with 11 samples.

Results

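The response of Ly-6D- common lymphoid progenitors (CLPs) to repeated CpG treatment was measured on 6 of the 11 microarrays of the series, 3 from CpG-treated and 3 from PBS-treated mice. Sample titles, which name population and treatment, decided which arrays were used, and the change was computed for each of 22180 genes. All mice were C57BL/6. They had been given PBS, the vehicle, or 50 µg of CpG1826 on alternate days, and bone marrow CLPs were sorted on day 10 straight into lysis buffer. The other 5 arrays, 3 of Ly-6D+ CLPs after CpG and 2 of Ly-6D+ CLPs after PBS, entered the same linear model and are used here for the spread between arrays and for comparison. The labels give no age and no sex, do not say whether a replicate was 1 mouse or a pool, and do not say whether both populations came from the same mice. Each p therefore measures only the spread between these samples, which may be technical.

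CLPs are rare bone marrow progenitors that give rise to B cells, T cells, natural killer cells and some dendritic cells. Ly-6D is a small surface protein that appears on CLPs once they enter the B lineage, so that Ly-6D- CLPs are the earlier population, with lymphoid potential that is still broad. CpG1826 is a synthetic oligonucleotide that activates Toll-like receptor 9 (Tlr9), an endosomal sensor of microbial DNA. Its ligation on immune cells induces interferons and inflammatory cytokines, so a progenitor can meet the ligand itself or the cytokines made by other cells.

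Values are log2 expression, so a difference of 1 corresponds to a factor of 2. The lower quartile of each Ly-6D- array lay between 2.62 and 2.67, and values near it are dim. Ly6d, the gene of the sorted protein, read 7.63, 7.47 and 8.08 on the CpG arrays and 8.03, 8.15 and 8.50 on the PBS arrays, against 12.55 or more on every Ly-6D+ array. The 6 Ly-6D- arrays were thus all well below the Ly-6D+ arrays, while their own treatment groups overlapped (log2 change -0.50, SE 0.16, limma adjusted p = 0.225). Defining CLP genes were bright on all 6 arrays, with Flt3, a cytokine receptor of early progenitors, at 10.36 or more and Il7r, the receptor chain for the lymphoid growth factor IL-7, at 9.05 or more.

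At a limma adjusted p below 0.05, 121 of 22180 genes changed (0.546%). Of these, 67 rose (0.302%) and 54 fell (0.243%). In all 121 the CpG and PBS arrays did not overlap, a state that 8.50% of all genes reached with CpG higher and 7.20% with CpG lower. These shares are the background for the counts of each list below. Among the genes that rose, 34 rose at least 2-fold, and the median log2 change was 1.01. Among those that fell, 11 fell at least 2-fold, with a median of -0.83. Over all genes the median change was -0.0006 and 49.8% of the changes were above 0. Before adjustment, 2664 genes had a p under 0.05, 1409 of them higher and 1255 lower after CpG.

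**Figure D1:**
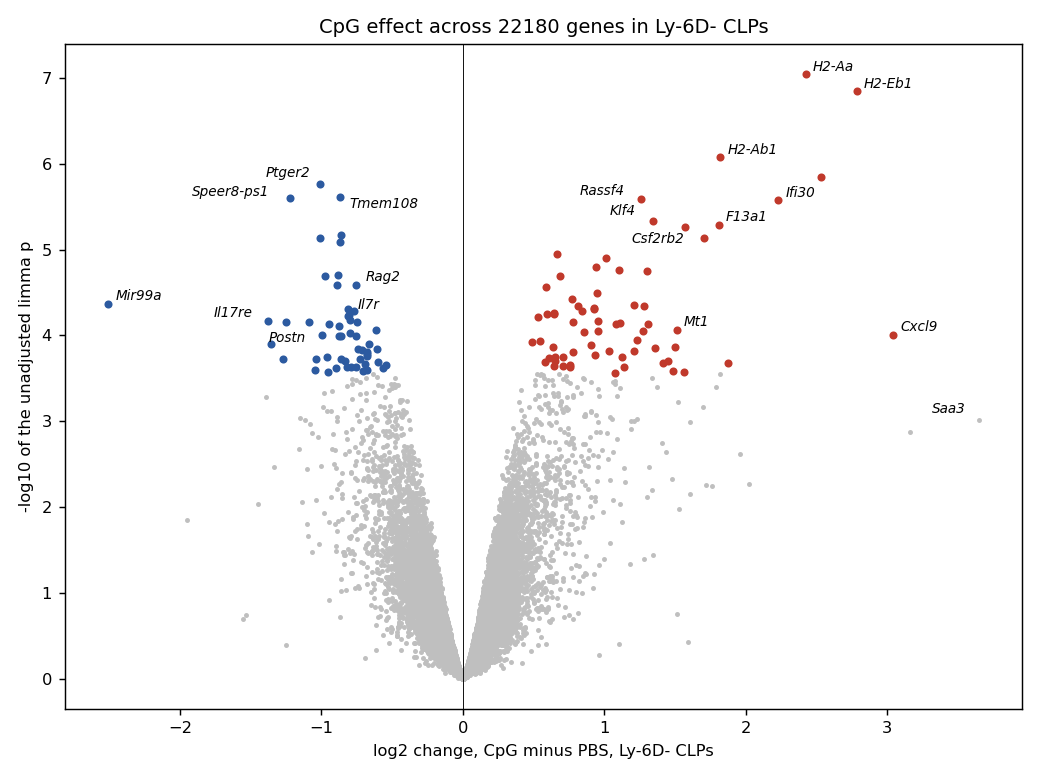
Each point is 1 of 22180 genes in Ly-6D- CLPs, with the log2 change (CpG minus PBS, 3 arrays each) on the x axis and -log10 of the unadjusted limma p on the y axis. Red points are the 67 genes that rose, blue points the 54 that fell, and grey points did not pass; H2-Aa and H2-Eb1 lie highest, Mir99a lies farthest to the left, and Saa3, far to the right, did not pass.

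The smallest p values belonged to genes of MHC class II, the surface molecules on which antigen-presenting cells show peptides to CD4+ T cells. Transcripts of both chains of I-A and of the beta chain of I-E rose between 3.53-fold and 6.89-fold. Surface protein was not measured on these arrays. H2-Eb1, the I-E beta chain, read 9.07, 9.02 and 8.63 on the CpG arrays and 6.43, 6.20 and 5.74 on the PBS arrays. The lowest CpG array was far above the highest PBS array, and the rise was 6.89-fold (log2 change 2.79, SE 0.23, limma adjusted p = 0.00159). H2-Aa, the I-A alpha chain, read 9.70, 9.75 and 9.39 after CpG and 7.32, 7.30 and 6.95 after PBS. It rose 5.37-fold (log2 change 2.42, SE 0.19, adjusted p = 0.00159), again with a wide gap between groups. H2-Ab1, the I-A beta chain, started from a higher level, at 8.64, 8.67 and 8.92 after PBS, and stood at 10.65, 10.68 and 10.36 after CpG. Its rise was 3.53-fold (log2 change 1.82, SE 0.18, adjusted p = 0.00624). These 3 genes passed whichever of the 11 arrays was left out, with adjusted p no higher than 0.0413.

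The other class II genes moved less or the other way. Of the 10 measured members of the list, 3 rose and 0 fell, 8 were above 0, and the median change was 0.57. Ciita, the master transactivator of class II transcription, read 5.89, 5.94 and 5.54 after CpG and 4.46, 5.10 and 4.93 after PBS. Its arrays did not overlap, but the change of 0.96 (SE 0.19) did not pass (adjusted p = 0.0552). H2-DMa, a chain of the peptide editor H2-DM, was bright in both groups, at 10.48 to 10.53 after CpG and 10.24 to 10.45 after PBS (change 0.13). H2-Ob, a chain of H2-O, which restrains that editor, had a change of -0.43 and did not pass (adjusted p = 0.31). Cd74, the invariant chain, has no probe set of its own here and was not analysed.

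Class II promoters carry a conserved Y box, an inverted CCAAT element that binds the factor NF-Y beside the sites that recruit Ciita. The promoters below are shown because the genes moved together and because these letters stand in them. Windows from 250 bases before to 50 bases after each RefSeq start site (build GRCm38.p6) were searched on both strands for CTGATTGG (the Y box) and an ISRE-like motif (like the element bound by interferon regulatory factors), and the 250 bases before the start are printed 5′ to 3′ with the matches in capitals.
H2-Eb1, chr17:34305617-34305866, plus strand: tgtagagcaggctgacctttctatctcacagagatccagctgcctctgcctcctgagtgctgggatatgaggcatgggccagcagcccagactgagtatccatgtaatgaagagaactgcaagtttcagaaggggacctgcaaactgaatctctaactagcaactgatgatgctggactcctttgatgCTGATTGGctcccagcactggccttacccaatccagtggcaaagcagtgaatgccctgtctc
H2-Aa, chr17:34287824-34288073, minus strand: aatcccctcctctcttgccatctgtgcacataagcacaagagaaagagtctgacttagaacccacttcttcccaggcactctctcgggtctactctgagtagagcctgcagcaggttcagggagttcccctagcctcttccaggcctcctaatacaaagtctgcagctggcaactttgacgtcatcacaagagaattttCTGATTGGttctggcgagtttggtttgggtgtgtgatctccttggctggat
Cxcl9, chr5:92328080-92328329, minus strand: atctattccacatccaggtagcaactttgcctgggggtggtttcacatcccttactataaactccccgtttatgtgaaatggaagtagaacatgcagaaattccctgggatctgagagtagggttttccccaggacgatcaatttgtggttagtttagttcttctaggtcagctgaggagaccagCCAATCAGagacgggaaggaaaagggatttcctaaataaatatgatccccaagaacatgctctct
Cxcl10, chr5:92348890-92349139, minus strand: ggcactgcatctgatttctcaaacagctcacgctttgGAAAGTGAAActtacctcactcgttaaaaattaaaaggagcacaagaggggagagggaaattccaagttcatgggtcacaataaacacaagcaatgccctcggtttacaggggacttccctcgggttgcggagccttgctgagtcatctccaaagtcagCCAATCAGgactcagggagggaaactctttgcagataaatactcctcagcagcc
Igtp, chr11:58199306-58199555, plus strand: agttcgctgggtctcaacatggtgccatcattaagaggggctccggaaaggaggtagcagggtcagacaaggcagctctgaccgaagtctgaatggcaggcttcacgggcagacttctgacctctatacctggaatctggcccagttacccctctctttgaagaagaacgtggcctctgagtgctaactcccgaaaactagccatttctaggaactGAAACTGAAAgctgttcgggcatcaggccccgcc
The Y box letters began at position -62 in H2-Eb1, -51 in H2-Aa, -65 in Cxcl9 and -54 in Cxcl10, counted from the start site, and read as the reverse complement, CCAATCAG, in both chemokine genes. Cxcl10 also held an ISRE-like match at -213, and Igtp held one at -34. Of the 22180 genes, 16918 had a promoter in the table. Among those, the Y box letters stood in 5.29% and the ISRE-like letters in 3.88%. Of the 58 rising genes with a promoter, 4 held the Y box (6.9%) and 7 an ISRE-like match (12.1%). Of the 41 falling genes with one, 1 (Xrcc6) held the Y box (2.44%) and 3 an ISRE-like match (7.32%). The promoters of H2-Ab1 and Ciita were not analysed here. These matches describe letters in the windows and were not tested as binding sites.

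Genes that interferon-gamma induces were also mostly higher, led by Cxcl9, Cxcl10 and some of the GTPases. Of 16 measured members, 3 rose, 0 fell and 15 were above 0, with a median change of 0.53. Cxcl9, a chemokine that draws activated T cells through the receptor Cxcr3, read 8.03, 8.45 and 6.32 after CpG and 4.07, 4.77 and 4.84 after PBS. CpG replicate 3 stood far below the other CpG arrays yet above every PBS array. The rise was 8.22-fold (log2 change 3.04, SE 0.50, adjusted p = 0.0336), the largest of the genes that passed. Cxcl10, which acts on the same receptor, read 6.23, 6.29 and 5.16 after CpG and 4.47, 4.44 and 4.28 after PBS, and rose 2.83-fold (SE 0.26 on the log2 scale, adjusted p = 0.0405). Igtp, an interferon-inducible GTPase of vacuole defence, read 9.26, 9.60 and 9.17 after CpG against 8.41, 8.36 and 8.16 after PBS. Its 2.05-fold rise (SE 0.18, adjusted p = 0.0416) had no overlap between groups.

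The other members of this list did not pass, and their changes ranged widely. Iigp1, a GTPase of the same family as Igtp, had the largest of these changes (1.79, SE 0.35, adjusted p = 0.0544). Next came Gbp5 (1.41), Gbp3 (0.96) and Gbp4 (0.79), guanylate-binding proteins. Smaller changes were those of Irgm2 (0.35), Cxcl11 (0.23), Gbp9 (0.13) and Irgm1 (0.01), and Gbp6 was at -0.22. Irf1, a transcription factor that interferon-gamma induces, overlapped between groups with a change of 0.16, and Socs1, the feedback inhibitor of the receptor, had one of 0.07. Gm4951, a predicted gene that falls outside the rule for named genes and was chosen after its values were seen, read 6.78, 7.64 and 6.88 after CpG and 4.73, 4.67 and 4.31 after PBS. It rose 5.79-fold (SE 0.26, adjusted p = 0.0066) and passed whichever array was left out. The chemokine calls were less stable: Cxcl9 passed in 2 of the 11 fits with 1 array left out (adjusted p up to 0.157), Cxcl10 in 1 (up to 0.171) and Igtp in 3 (up to 0.154).

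For MHC class I, the transactivator was the 1 gene that passed. Of 14 measured members, 1 rose and 13 were above 0, with a median change of 0.27, and 8 had arrays that did not overlap. This was Nlrc5, which drives class I transcription, at 6.56, 6.55 and 6.64 after CpG and 6.18, 5.92 and 5.71 after PBS (1.57-fold, SE 0.11, adjusted p = 0.0444). It passed in 1 of the 11 fits with 1 array left out. H2-Q4, a non-classical class I heavy chain, and Tap1, a subunit of the peptide transporter, had changes of 0.70 and 0.35 and did not pass. Tap2, the other subunit, was at -0.18. B2m, the light chain of class I, was near 13.1 on all 6 arrays, with a change of 0.03.

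Genes on the list of lysosomal proteases and antigen processing were largely higher. Lysosomal proteases cut the peptides that class II presents, and the list also holds genes that are not proteases, such as Cst3, Lamp1, Lamp2, Lyz1 and Lyz2. Of 15 measured members, 2 rose, 0 fell and 13 were above 0; the median was 0.29 and 11 did not overlap between groups. Ifi30, a lysosomal thiol reductase that interferon-gamma induces and that unfolds antigens, read 10.10, 9.81 and 9.27 after CpG and 7.90, 7.61 and 6.97 after PBS. In both groups replicate 1 was highest and replicate 3 lowest, with a gap of more than 1 between groups. The rise was 4.69-fold (log2 change 2.23, SE 0.24, adjusted p = 0.0066), and it passed in 10 of the 11 fits with an array left out, failing without Ly-6D- CpG replicate 2 (adjusted p = 0.0583). Ctsh, cathepsin H, read 8.47, 8.36 and 7.88 against 7.23, 7.06 and 6.61, and rose 2.41-fold (SE 0.21, adjusted p = 0.0333; 2 of 11 fits). Ctsz and Lgmn, also lysosomal proteases, were higher by 0.91 (adjusted p = 0.0525) and 0.74 (adjusted p = 0.0921) without passing, and Ctsl had a change of 0.12.

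Markers of monocytes and macrophages formed the list with the most genes that rose. Of 24 measured, 5 rose, 0 fell, 22 were above 0 and 14 did not overlap, with a median change of 0.56. Over all genes, 0.302% rose and 8.50% had no overlap with CpG higher. F13a1, the A chain of coagulation factor XIII and a gene of classical monocytes, read 9.09, 8.65 and 8.06 after CpG and 6.98, 6.81 and 6.58 after PBS. Every CpG array was above every PBS array, and replicate 3 was the lowest in each group. F13a1 rose 3.5-fold (log2 change 1.81, SE 0.21, adjusted p = 0.0101). Ccr2, the chemokine receptor with which monocytes leave the marrow, read 8.95, 8.77 and 8.10 against 7.11, 7.13 and 6.87, a rise of 2.97-fold (SE 0.19, adjusted p = 0.0101). Klf4, a transcription factor of monocyte differentiation, read 7.08, 6.87 and 6.47 against 5.58, 5.50 and 5.31, and rose 2.54-fold (SE 0.16, adjusted p = 0.0101). These 3 genes did not overlap between groups and passed in 9 of the 11 fits with an array left out; they did not pass where CpG replicate 2 or PBS replicate 3 of the Ly-6D- arrays was missing, with adjusted p up to 0.0637.

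Ms4a6c, a membrane protein of the Ms4a family, and Ly6c2, which encodes the monocyte antigen Ly-6C, rose 2.43-fold (SE 0.19, adjusted p = 0.03) and 2.12-fold (SE 0.17, adjusted p = 0.03). Ly6c2 was already bright after PBS, at 10.38, 10.33 and 10.46, and reached 11.76, 11.63 and 11.03 after CpG. Markers of mature monocytes and macrophages that did not pass ranged widely. Lyz2, lysozyme, was at 10.68 to 10.85 after CpG and 10.59 to 10.75 after PBS, with overlap and a change of 0.08. Cd14, the lipopolysaccharide co-receptor, stayed between 3.16 and 4.01 on the 6 arrays, around the array medians, with a change of 0.22. Adgre1, a macrophage adhesion receptor, overlapped as well, with a change of 0.93 that did not pass (adjusted p = 0.446). C1qb, a complement chain of macrophages, was at 1.18, Cx3cr1, the fractalkine receptor, at 0.85, Fcgr1, the high-affinity IgG receptor, at 0.75 and Cd68, a lysosomal glycoprotein, at 0.58. Csf1r, the receptor of macrophage colony-stimulating factor, read 9.0, 8.66 and 8.39 against 7.77, 7.72 and 7.33 and lay just outside the threshold (change 1.08, SE 0.21, adjusted p = 0.0524). The mean level over all 24 markers was 6.81 to 7.43 on the CpG arrays and 6.34 to 6.50 on the PBS arrays. The dimmest marker averaged 2.88 over the 6 arrays, near their lower quartiles. These markers moved with the class II and lysosomal genes, and their part in those results was not tested. In sorted bulk RNA, a change in the number of cells of a type and a change in RNA per cell cannot be told apart.

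**Figure D2:**
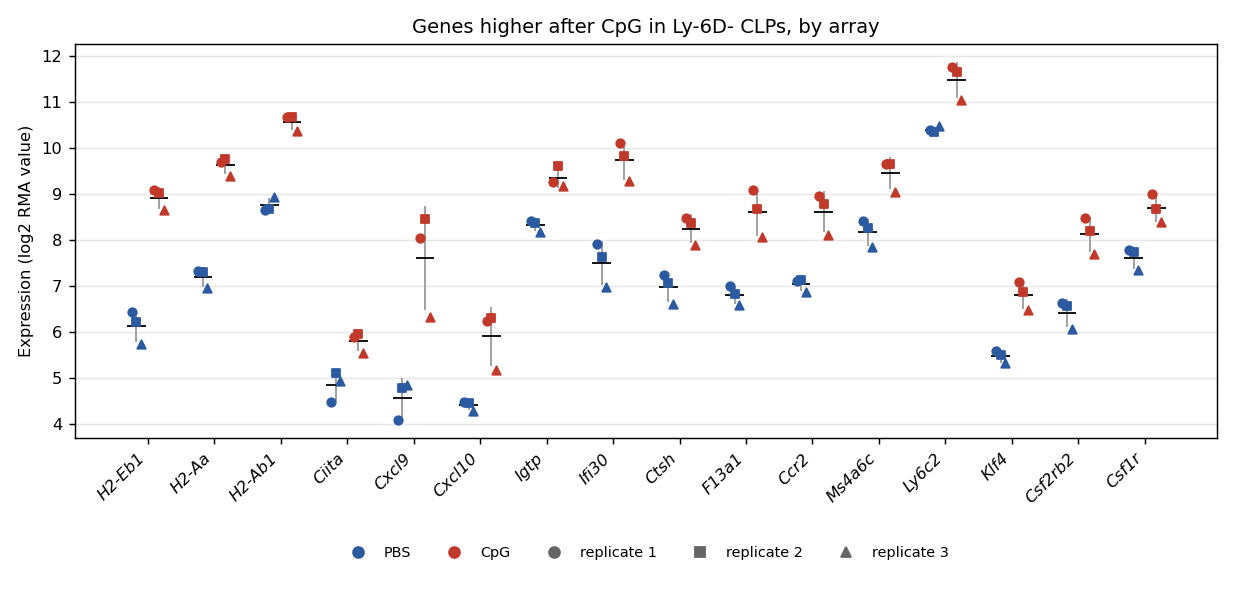
Log2 expression on each Ly-6D- array (y axis) for 16 genes that were higher after CpG (x axis); blue marks are PBS arrays, red marks CpG arrays, the shape gives the replicate number, horizontal bars are group means and vertical lines the SD between 3 arrays. In all 16 genes the red marks lie above the blue ones, with CpG replicate 3 the lowest CpG array in each; Ciita and Csf1r did not pass the test.

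Among receptors for myeloid growth factors, the 1 that passed was Csf2rb2. Of 17 myeloid transcription factors and colony-stimulating factor receptors, 2 rose (Klf4, counted above as well, and Csf2rb2), 0 fell and 13 were above 0, with a median change of 0.41. Csf2rb2, the beta chain of the mouse IL-3 receptor, read 8.46, 8.18 and 7.69 after CpG and 6.61, 6.56 and 6.05 after PBS. The groups were well apart, and the rise was 3.25-fold (SE 0.21, adjusted p = 0.0108), which passed in 8 of the 11 fits with an array left out. Its close relative Csf2rb, the shared beta chain for IL-3, IL-5 and GM-CSF, overlapped between groups with a change of 0.43 (adjusted p = 0.356); the probe sets of such near-identical genes can share signal. Csf2ra, the GM-CSF receptor alpha chain, was at 0.24 and Csf3r, the granulocyte colony-stimulating factor receptor, at -0.58, and neither passed. Cebpb, a factor of emergency myelopoiesis, was higher by 0.77 (adjusted p = 0.104). Spi1, which encodes PU.1, and Irf8, a factor of monocytes and dendritic cells, were higher by 0.47 (adjusted p = 0.156) and 0.39 (adjusted p = 0.0989), and neither passed.

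Neutrophil genes were evenly divided. Of 20 neutrophil and primary granule genes, 0 rose and 0 fell by limma, 10 were above 0 and 10 below. The median was 0.00, and under the alternatives it lay between -0.08 and 0.06. CpG arrays lay above all PBS arrays in 4 genes and below in 1, beside 8.50% and 7.20% of all genes. The mean level of the list was 8.52 to 8.74 after CpG and 8.39 to 8.69 after PBS, so the groups overlapped. Ctsg and Prtn3, serine proteases of the primary granules of early myeloid cells, had changes of 1.09 (adjusted p = 0.104) and 1.04 (adjusted p = 0.0787). Elane, from the same granules, was at -0.29, S100a8 and S100a9, of mature neutrophils, were at -0.04 and -0.05, and Csf3r was at -0.58 (adjusted p = 0.244).

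Dendritic cell genes were divided. Of 16 plasmacytoid markers, 2 rose (Ly6c2 and Cd300c), 1 fell (Tlr7) and 10 were above 0, with a median of 0.29. Cd300c, an activating receptor of myeloid and plasmacytoid cells, read 8.52, 8.39 and 8.15 after CpG and 7.22, 7.35 and 6.87 after PBS (2.31-fold, SE 0.21, adjusted p = 0.0416). Among those that did not pass, Siglech, a lectin of these cells, had a change of -0.35 (adjusted p = 0.232) and Tcf4, their master factor, one of -0.24, while Spib, another of their transcription factors, was at 0.69, Pacsin1 at 0.34 and Bst2, a surface antigen that interferon also induces, at 0.30. Of 14 conventional dendritic markers 0 rose and 0 fell by limma while 7 had CpG arrays above all PBS arrays and 1 below, and the median was 0.18. Naaa, a lysosomal amidase high in cross-presenting dendritic cells, had the largest change among them (1.37, SE 0.27) and lay just outside the threshold (adjusted p = 0.0544), and Batf3, a factor of the same cells, was at 0.91 (adjusted p = 0.0755).

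The nucleic acid sensors themselves were divided as well. Tlr9, the receptor of the CpG ligand, read 7.10, 7.41 and 7.21 after CpG and 6.70, 6.41 and 6.01 after PBS, higher on every CpG array, and did not pass (change 0.87, SE 0.19, adjusted p = 0.076). Tlr7, its endosomal relative for single-stranded RNA, fell from 8.80, 8.88 and 8.77 to 7.99, 7.97 and 8.24. That fall was 1.68-fold (log2 change -0.75, SE 0.12, adjusted p = 0.03), with no overlap, and passed in 3 of the 11 fits with an array left out. Of 21 Toll-like receptors and signalling partners, Tlr7 was the 1 that fell and 0 rose, with a median of 0.13. Tlr1, a surface receptor for lipopeptides, was higher by 1.34 (SE 0.25, adjusted p = 0.0522), while Myd88, the adaptor, and Unc93b1, the chaperone of the endosomal receptors, were higher by 0.20 and 0.35 and did not pass.

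Type I interferon-stimulated genes were on the lower side. Of 26 measured, 0 rose, 1 fell and 20 were below 0, with a median of -0.27. CpG arrays lay below all PBS arrays in 9 genes and above in 1, beside 7.20% and 8.50% of all genes. Over all genes, 0.243% fell. Ddx58, which encodes the RNA sensor RIG-I, read 6.21, 6.40 and 6.78 after CpG and 7.37, 7.42 and 7.06 after PBS, a fall of 1.76-fold (log2 change -0.82, SE 0.15, adjusted p = 0.0465) that passed in 1 of the 11 fits with an array left out. Rtp4 (-0.83), Mx2 (-0.80), Oas2 (-0.79) and Isg15 (-0.48), antiviral genes, did not pass. Irf7, the factor that amplifies type I interferon, overlapped between groups with a change of -0.13 (adjusted p = 0.844). The list's mean level was 6.59 to 6.87 after CpG and 6.81 to 7.16 after PBS, so the groups overlapped on that measure.

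Genes that identify early lymphoid progenitors were lower. Of 17 measured, 0 rose, 3 fell and 14 were below 0; 10 had CpG arrays below all PBS arrays, and the median was -0.32. Il7r read 10.03, 10.08 and 10.06 after PBS and 9.17, 9.05 and 9.53 after CpG. The PBS arrays were nearly equal and all above the CpG arrays, and Il7r fell by 0.81 on the log2 scale, or 1.75-fold (SE 0.13, adjusted p = 0.03). Rag2, a subunit of the recombinase that assembles antigen receptor genes, read 9.61, 9.71 and 9.48 after PBS and 8.69, 8.92 and 8.92 after CpG, a fall of 1.68-fold (SE 0.11, adjusted p = 0.0221). Lax1, an adaptor that dampens lymphocyte receptor signals, read 8.27, 8.17 and 8.26 after PBS and 6.80, 7.39 and 7.39 after CpG, and fell 2.05-fold (SE 0.18, adjusted p = 0.0444). These calls passed in 3, 6 and 2 of the 11 fits with an array left out, with adjusted p up to 0.132, 0.117 and 0.143.

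Other members of the lymphoid programme were lower by less. Flt3 read 10.53, 10.36 and 10.72 after CpG and 10.87, 10.82 and 10.84 after PBS, without overlap, and did not pass (change -0.31, SE 0.10, adjusted p = 0.248). Notch1, the receptor that directs progenitors to the T lineage, was at -0.57 (adjusted p = 0.171), Ets1, a lymphoid transcription factor, at -0.61 (adjusted p = 0.15) and Dntt, the terminal transferase of receptor joints, at -0.29 (adjusted p = 0.21). Rag1 shares its probe set with other symbols and was not analysed.

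The B-lineage programme was lower in the same way. Of 27 measured genes, 0 rose, 2 fell (Rag2 again and Bank1) and 21 were below 0; 13 had CpG arrays below all PBS arrays, against 0 above, and the median was -0.24. Bank1, a scaffold of B-cell receptor signalling, read 5.63, 5.49 and 5.68 after CpG and 6.57, 6.81 and 6.34 after PBS. It fell 1.97-fold (SE 0.13, adjusted p = 0.019), with no overlap, and passed in 7 of the 11 fits. Ebf1, the factor that opens the B-cell programme, read lower, at 4.82, 4.41 and 5.12 against 5.34, 5.53 and 5.64, and did not pass (change -0.72, SE 0.17, adjusted p = 0.112). Pax5, which commits cells to that programme, overlapped between groups (change -0.35, adjusted p = 0.459). Among receptor genes, Cd79a was at -0.85 and Cd79b at 0.06, and Blk, a Src-family kinase of B cells, was at -0.89 (adjusted p = 0.0787). On the list of 13 mature B-cell and plasma-cell genes, 1 fell: Fcrl1, an Fc receptor-like protein of B cells, went from 7.63, 7.61 and 7.75 to 6.57, 6.44 and 7.11 (1.94-fold, SE 0.18, adjusted p = 0.0498), a call that 1 of the 11 fits kept. That list had a median of -0.01, which lay between -0.15 and 0.02 under the alternatives.

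Stem and multipotent progenitor genes were lower as well, although none passed. By limma 0 of 15 rose and 0 fell, 13 were below 0, and 11 had CpG arrays below all PBS arrays against 0 above; the median of -0.36 stood beside -0.0006 for all genes. Meis1, a homeobox factor of stem cells, was at -0.52 (SE 0.12, adjusted p = 0.0815). Eya2 (-1.07), a transcriptional coactivator, Angpt1 (-0.74), a niche ligand that progenitors make, Kit (-0.35), the stem cell factor receptor, and Cd34 (-0.30), a surface sialomucin, were lower without passing. Erythroid, megakaryocyte and mast-cell markers (14 measured) and T-cell markers (13 measured) had medians of -0.09 and -0.07, with 0 genes passing. Stromal and endothelial markers had a median of -0.07 over 16 genes, of which 1 (Postn) fell and 0 rose. Their mean levels were 3.89 to 3.90 after CpG and 3.94 to 4.0 after PBS, near the array medians.

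**Figure D3:**
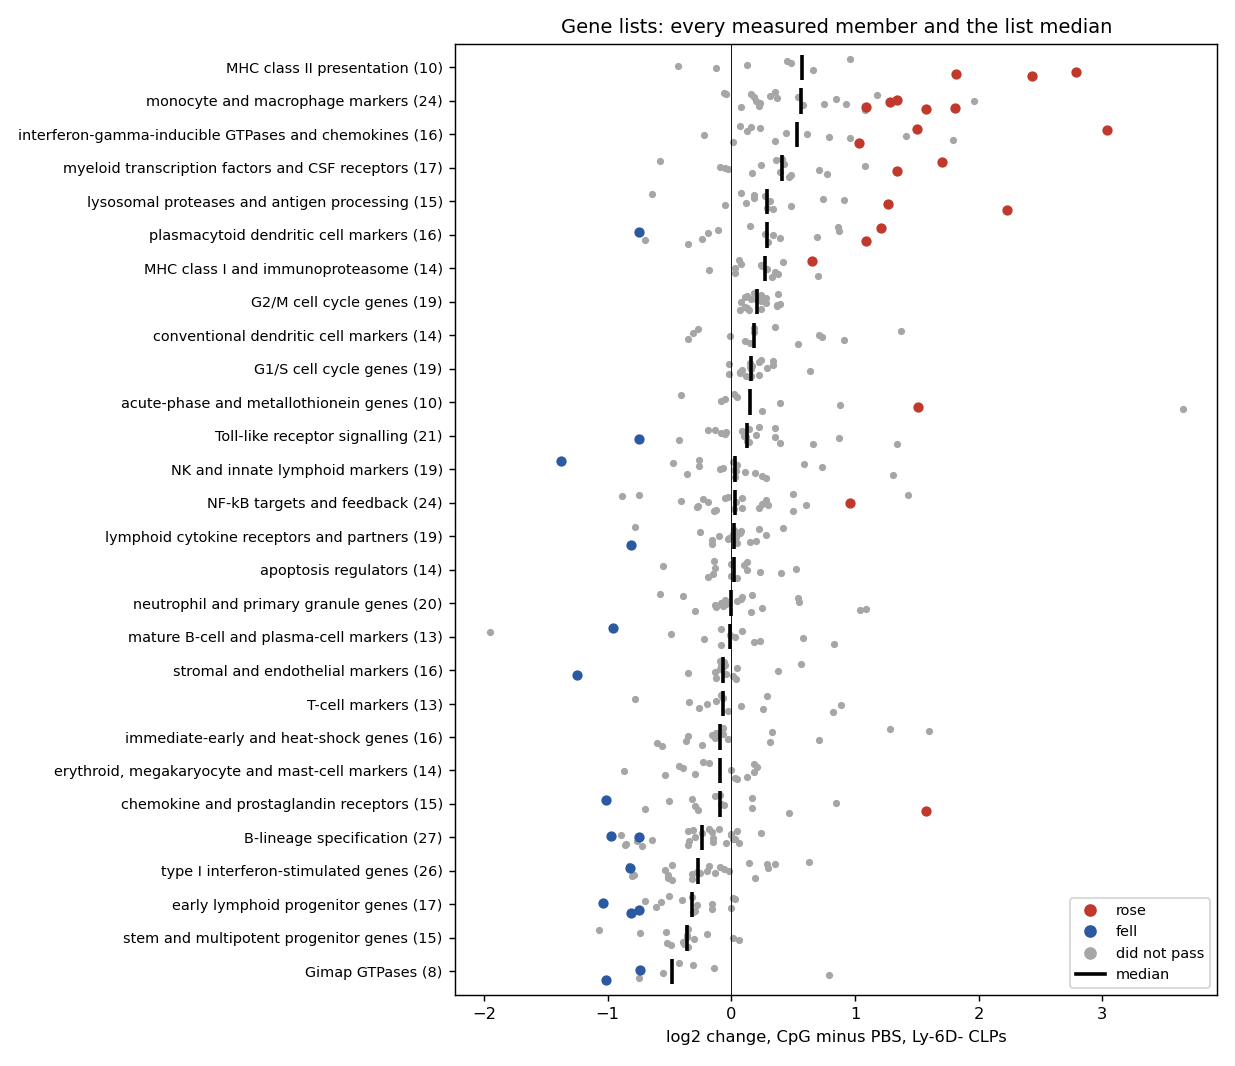
Every measured member of 28 gene lists, with the number measured in brackets on the y axis and the log2 change in Ly-6D- CLPs (CpG minus PBS) on the x axis; red and blue points rose and fell, grey points did not pass, and the black bar is the list median. Class II (median 0.57), monocyte (0.56) and interferon-gamma (0.53) lists lie at the top, and Gimap (-0.48), stem (-0.36) and early lymphoid (-0.32) lists at the bottom.

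Falls were also found for 2 Gimap genes and 1 prostaglandin receptor. Of the 8 Gimap genes, GTPases that support lymphocyte survival, 0 rose, 2 fell and 7 were below 0; 5 had CpG arrays below all PBS arrays and 1 above, and the median was -0.48. Gimap1 read 6.10, 6.21 and 6.54 after CpG and 7.41, 7.18 and 7.29 after PBS, a fall of 2.01-fold (SE 0.12, adjusted p = 0.0108), but a second and dimmer probe set of Gimap1 had a change of 0.087. Gimap6 fell 1.67-fold (SE 0.13, adjusted p = 0.0412), and Gimap4 went the other way without passing (0.79, adjusted p = 0.164). Ptger2, a receptor of prostaglandin E2, read 6.83, 7.02 and 6.78 after CpG and 7.94, 7.89 and 7.82 after PBS. The groups were tight and apart, the fall was 2.01-fold (log2 change -1.01, SE 0.11, adjusted p = 0.0066), and it was the 1 fall that passed whichever array was left out. Ptger4, another receptor of the same ligand, had a change of 0.17 and did not pass.

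Further falls came from separate lists or from none. Il17re, the receptor chain for the epithelial cytokine IL-17C, was the 1 fall among 19 NK and innate lymphoid markers. It went from 6.46, 6.63 and 6.88 to 5.46, 4.85 and 5.51, a fall of 2.60-fold (SE 0.22, adjusted p = 0.03). Cd33, a sialic acid-binding lectin, fell 2.07-fold (SE 0.19, adjusted p = 0.0485) from 9.42, 9.22 and 9.05 to 7.96, 7.89 and 8.69. Tmem108, a transmembrane protein, was bright and tight in both groups, at 9.67, 9.61 and 9.72 after CpG and 10.53, 10.57 and 10.50 after PBS. It fell 1.82-fold (SE 0.09, adjusted p = 0.0066) and passed in 10 of the 11 fits with an array left out; its second probe set had a change of -0.487. Tcf7l2, a transcription factor of Wnt signalling, fell 1.82-fold (SE 0.11, adjusted p = 0.0112), and Hmga2, a chromatin protein of fetal stem cells, fell 1.93-fold (SE 0.15, adjusted p = 0.03). Tspan6 (2.56-fold), Wfdc18 (2.41-fold), Slc37a2 (2.13-fold), Epb41l5 (1.99-fold), Igf2r (1.86-fold), Vldlr (1.85-fold), Pisd-ps3 (1.84-fold) and Pear1 (1.83-fold) completed the larger falls. With an array left out, Cd33, Tspan6 and Wfdc18 passed in 1 of the 11 fits, and Il17re, Hmga2, Slc37a2 and Epb41l5 in 3. Igf2r passed in 4, Pisd-ps3 and Pear1 in 6, Vldlr in 7 and Tcf7l2 in 8. Postn, a matrix protein, and Speer8-ps1, a pseudogene, fell 2.37-fold and 2.33-fold at dim levels, from 3.85 or more to 3.16 or less and from 3.18 or more to 2.29 or less.

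**Figure D4:**
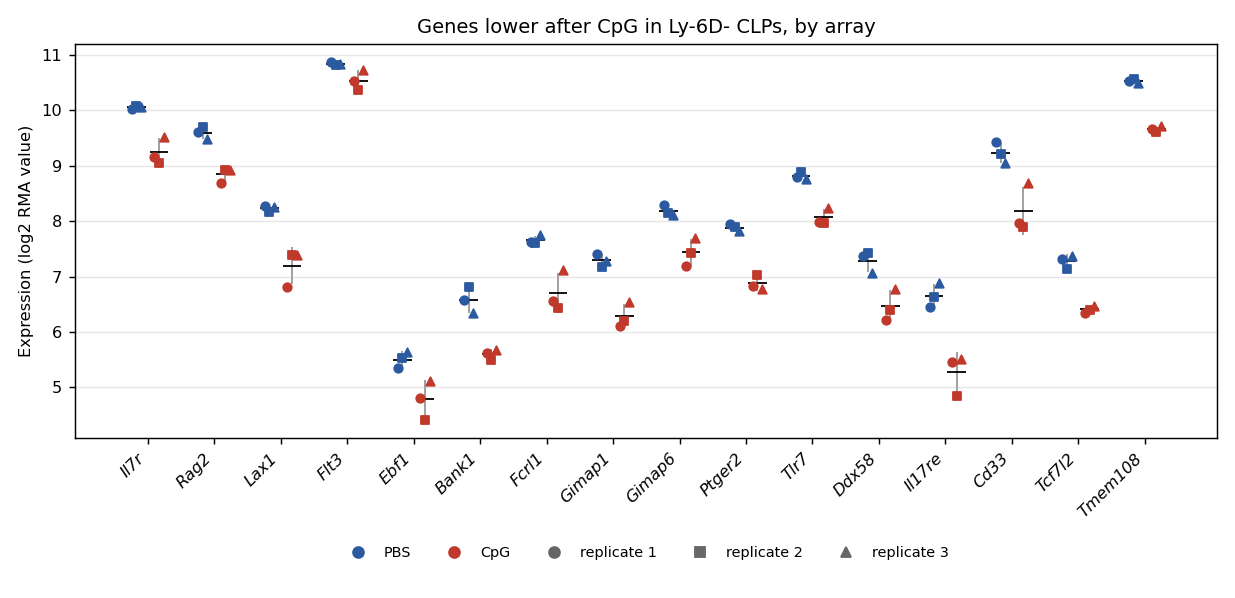
Log2 expression on each Ly-6D- array (y axis) for 16 genes that were lower after CpG (x axis), with blue PBS and red CpG marks, the shape giving the replicate number, horizontal bars for group means and vertical lines for the SD between 3 arrays. The blue marks lie above the red ones in all 16 genes; Flt3 and Ebf1 did not pass the test.

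The largest fall of all belonged to Mir99a, which was chosen after its values were seen because the rule for named genes passes over numbered symbols. Mir99a encodes a microRNA of the miR-99 and miR-100 family, for which mTOR is a known target. Its mature forms are shown because it had the largest fall; the seed, bases 2 to 8, is in capitals.
mmu-miR-99a-5p, chr16:77598940-77598961, plus strand: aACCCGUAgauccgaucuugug
mmu-miR-99a-3p, chr16:77598977-77598997, plus strand: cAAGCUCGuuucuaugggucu
The probe set measures transcript of the gene and not these mature forms. It read 4.64, 5.19 and 5.69 after PBS and 2.375, 2.54 and 3.09 after CpG, which took it to near the lower quartile of the arrays. The groups did not overlap, and the fall was 5.68-fold (log2 change -2.51, SE 0.37, adjusted p = 0.03). Mir99ahg, the long non-coding host gene, overlapped between groups (change -0.24, adjusted p = 0.533).

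Among the remaining rises were genes of innate cells and of stress. Fcgr4, an activating receptor for IgG, read 5.24, 5.03 and 4.82 after CpG and 3.48, 3.76 and 3.78 after PBS, a rise of 2.56-fold (SE 0.23, adjusted p = 0.0405). Pros1, protein S, an anticoagulant and a ligand of the Mer receptor on phagocytes, rose 2.96-fold (SE 0.29, adjusted p = 0.0498), and its CpG replicate 3, at 4.80, was well below the other CpG arrays at 5.91 and 6.01. Mt1, a metallothionein that binds zinc and responds to inflammation, read 8.68, 9.21 and 7.99 against 7.09, 7.05 and 7.20 (2.85-fold, SE 0.24, adjusted p = 0.0333). Saa3, an acute-phase protein, had the largest change of all listed genes (3.65, SE 0.81) but did not pass (adjusted p = 0.0815); its CpG arrays spread from 6.46 to 8.76 and its PBS arrays from 3.49 to 4.37.

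Rassf4, a Ras-association protein, was the steadiest of the remaining rises, at 8.82, 8.83 and 8.61 after CpG and 7.51, 7.59 and 7.37 after PBS (2.40-fold, SE 0.14, adjusted p = 0.0066), and passed in 10 of the 11 fits with an array left out. Bcl3, an atypical IkB protein, was the 1 of 24 NF-kB targets and regulators that rose (1.94-fold, SE 0.16, adjusted p = 0.0333), and 0 fell; Nfkbia, the classical feedback inhibitor, had a change of 0.09. Tmem178, Cttnbp2nl, Tspan17 and Depdc7 rose 3.67-fold, 2.66-fold, 2.48-fold and 2.46-fold. They passed in 1, 1, 3 and 7 of the 11 fits with an array left out. Cttnbp2nl was dim after PBS, at 2.89, 2.62 and 2.57, near the lower quartile of the arrays. Other rises, chosen after their values were seen, were Cd7 (2.02-fold), an early lymphoid surface protein, Itgb7 (1.93-fold), a gut-homing integrin chain, Ccl9 (2.20-fold) and Ccl6 (1.81-fold), myeloid chemokines, Gadd45b (2.35-fold), a stress-response gene, and Mefv (2.32-fold), which encodes pyrin. Lgals1 (1.59-fold), Vim (1.45-fold), S100a4 (1.56-fold) and Anxa5 (1.71-fold), which encode galectin-1, vimentin, a calcium-binding protein and annexin A5, were chosen in the same way. Falls chosen so were Il12a (1.66-fold), a subunit of IL-12, Esr1 (1.74-fold), oestrogen receptor alpha, Smad7 (1.60-fold), an inhibitor of TGF-beta signalling, and Arpp21 (1.82-fold).

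No cell cycle gene on either list passed. All 19 G2/M genes and 17 of 19 G1/S genes were above 0, with medians of 0.21 and 0.16, while by limma 0 of either list rose or fell; 8 and 12 of them had CpG arrays above all PBS arrays. Bub1, a mitotic checkpoint kinase, was at 0.39 (adjusted p = 0.152) and Ccne1, cyclin E1, at 0.64 (adjusted p = 0.0609). In Ly-6D+ CLPs 0 of the 19 G2/M genes were above 0 and their median was -0.10. The difference between populations was not called for any of them.

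In Ly-6D+ CLPs, the same treatment gave 6 genes that passed, 5 of them among the 67 that rose in Ly-6D- CLPs: H2-Eb1, H2-Aa, H2-Ab1, Gm4951 and Muc13, a transmembrane mucin. The 3 class II genes had changes of 3.29, 3.20 and 2.0 there, as against 2.79, 2.42 and 1.82. Of the 67 rises, 56 were above 0 in Ly-6D+ CLPs, with a median of 0.20 beside 1.01. Of the 54 falls, 43 were below 0 there, 0 passed, and the median was -0.15 beside -0.83. The genes were chosen for passing in Ly-6D- CLPs, which favours larger values in that population. The difference between the populations was tested gene by gene, and 0 of 22180 genes passed (0%), with 1413 at an unadjusted p under 0.05 (6.37%) and a smallest adjusted p of 0.231. No change above is therefore shown to be particular to Ly-6D- CLPs. Klf4, at 1.34 in Ly-6D- and 0.05 in Ly-6D+ CLPs, had a difference of 1.29 (adjusted p = 0.488), and Il7r, at -0.81 and -0.03, had one of -0.78 (adjusted p = 0.583).

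**Figure D5:**
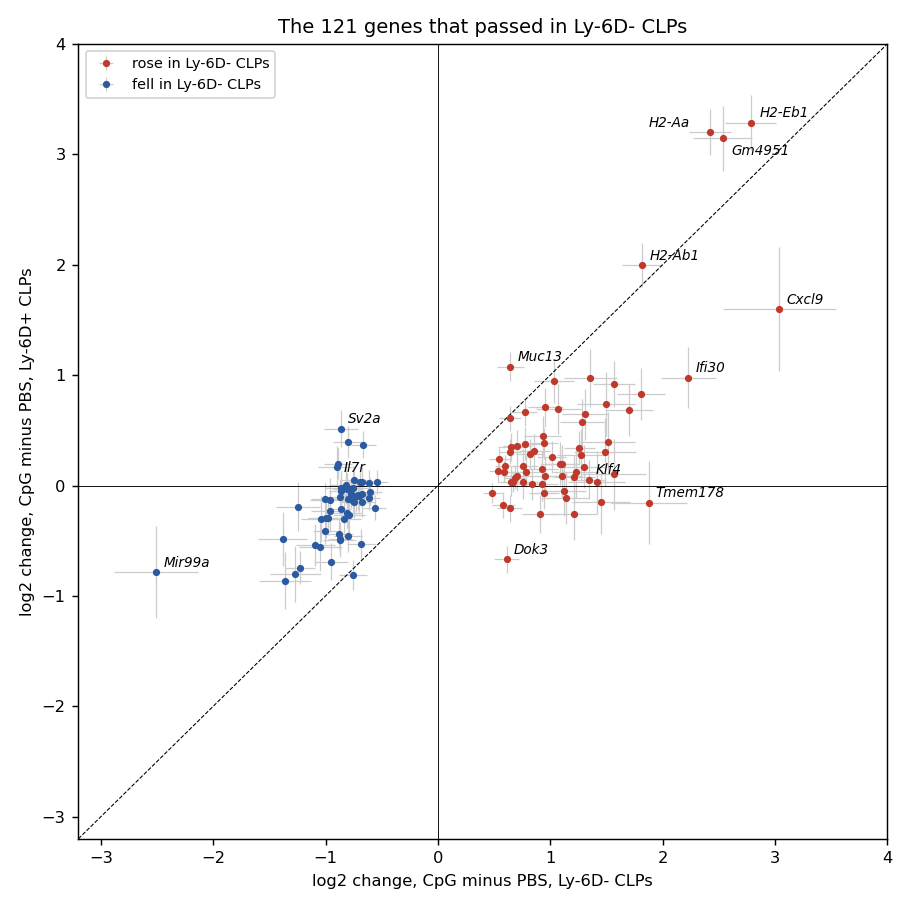
Log2 change after CpG in Ly-6D- CLPs (x axis) and in Ly-6D+ CLPs (y axis) for the 121 genes that passed in Ly-6D- CLPs; red rose, blue fell, bars are the SE of each change, and the dashed line marks equal change. The red points of H2-Eb1, H2-Aa, H2-Ab1, Gm4951 and Muc13 lie above the line, the red points have a median of 0.20 and the blue points one of -0.15 on the y axis, and the difference passed for 0 genes.

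The CpG arrays were not alike. CpG replicate 3 was the CpG array nearest to the PBS group in 55 of the 67 rises and in 37 of the 54 falls. The mean level of the 67 rising genes was 7.73, 7.69 and 7.32 on CpG replicates 1 to 3 and 6.51, 6.46 and 6.35 on the PBS arrays, and that of the 54 falling genes was 6.37, 6.42 and 6.64 against 7.36, 7.37 and 7.37. Without Ly-6D- CpG replicate 3, 309 genes passed, 113 of them among the 121. Without CpG replicate 1 or 2, 12 and 5 genes passed, and without PBS replicate 1, 2 or 3, 35, 22 and 14. Among the Ly-6D+ arrays, dropping replicate 1, 2 or 3 of the CpG group gave 33, 69 and 94, and dropping either PBS array gave 44. The 5 genes that passed in all 11 of these fits were H2-Eb1, H2-Aa, H2-Ab1, Gm4951 and Ptger2. From the 6 Ly-6D- arrays alone, 4 genes passed: H2-Eb1, H2-Aa, H2-Ab1 and Rassf4. Most calls thus rest on the spread pooled over all 11 arrays.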

How the data were processed

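RNA from sorted bone marrow CLPs (5 ng, amplified with NuGen SPIA, per the labels' protocols) was measured on Affymetrix Mouse Gene 2.0 ST arrays. The authors deposited log2 values; the submitters' processing notes name Partek and RMA, and no source used here gives their versions. RMA equalises the arrays' distributions, so a shift of all genes would not be seen. The number of arrays, 3 per Ly-6D- group, limits the precision.

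Of 41345 probe sets, 23521 had exactly 1 gene symbol in the supplied probe table (1814 had several, 16010 none listed). For 1082 of the 22180 genes more than 1 probe set was left, and the one brightest on average across the 11 arrays was kept. A model with a mean for each of 4 groups was fitted to all 11 arrays with limma 3.58.1 in R 4.3.3 (7 residual and 3.479 prior degrees of freedom), and p values were adjusted over all genes by Benjamini-Hochberg. SE is the moderated standard error of a log2 change, and fold is 2 to the power of its size. Tables came from pandas 2.3.3 under Python 3.11.15 and figures from matplotlib 3.10.9. The fit was tested on simulated data.

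The 28 gene lists (485 genes, 436 measured, 34 in more than 1 list), the genes and the alternatives were chosen with earlier results of these data known, so a list's direction is no independent evidence. The text names the 20 largest rises and 20 largest falls among genes that passed without overlap between groups, passing over predicted and numbered symbols, list members that passed, up to 3 list members with the smallest p, and preset progenitor genes. Further list members were named as examples, with their values known, and genes outside the lists and the rule are marked as such beside their values. Some names were left out for readability. Sequences are from RefSeq, matched by Entrez identifier.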

Additional observations from a re-analysis of the deposited data

Results flagged for a closer look

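In 7 of the 121 genes, CpG and PBS arrays did not overlap in either population, with opposite directions in Ly-6D- and Ly-6D+ CLPs. The share of all genes in that state was not counted, so these 7 are not shown to exceed it. The difference between the changes was tested with limma and did not pass for any of them over all 22180 genes. It was 1.28 for Dok3, an adaptor that dampens immune receptor signals (adjusted p = 0.231), 0.76 for E2f8, a repressor of the cell cycle (adjusted p = 0.488), and 0.56 for Inf2, an actin regulator (adjusted p = 0.538). For Cd6, a lymphocyte surface receptor, Rhobtb3, Sv2a and Vldlr, a lipoprotein receptor, it was -1.04, -1.19, -1.38 and -1.08 (adjusted p = 0.375 for each). Dok3 read 6.18, 6.06 and 6.08 after CpG and 5.53, 5.56 and 5.40 after PBS in Ly-6D- CLPs, and its change in Ly-6D+ CLPs was -0.67. No outlier test was made within groups, which held 3 arrays or fewer.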

How the results depend on the processing

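The count of 121 genes was 118 with every probe set by itself, 130 with a gene's probe sets averaged, 110 with each array centred on its median, 170 after a further quantile normalization and 122 with the replicate number within treatment as a random block. It was 236 without the dimmest 33.3% of genes, 425 with a variance trend and robust estimation, 207 with array weights, 326 at an adjusted p below 0.10, and 4 from the Ly-6D- arrays alone, where fewer arrays set the spread. The labels do not say whether equal replicate numbers mark shared mice. Deviations from the group means correlated at -0.0345 to 0.176 between same-number arrays and at -0.127 to 0.0912 between different-number arrays. The highest values, 0.176, 0.13 and 0.0961, all belonged to same-number pairs. The main model treats all 11 arrays as independent. With the replicate block 108 genes passed, 74 of them among the 121. Leaving out 1 array gave 5 to 309 genes, and 90 of the 121 passed in under 6 of those 11 fits. Leaving out a Ly-6D+ PBS array leaves a lone array, assumed to vary like the other groups. The cause of these moves was not tested beyond this.

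For the difference between populations, every alternative gave 0 genes except the fit without Ly-6D+ PBS replicate 1, which gave 1, an immunoglobulin kappa variable gene that differed between the PBS arrays of Ly-6D+ CLPs; leaving out 1 array thus gave 0 to 1. Over the named and passed genes, taken with each alternative, 2753 results were the same, 1073 weaker and 106 stronger. In 0 of them did a change that passed reverse its sign. With every probe set by itself, a gene was read here from its brightest probe set. The opposite second probe set of Gimap1 (0.087) therefore did not enter this count. Across the alternatives, list medians near 0 lay on both sides of 0 for neutrophil, mature B-cell, NK, erythroid and megakaryocyte, NF-kB, cytokine receptor and apoptosis genes. The median of the chemokine and prostaglandin receptors was -0.09 and reached 0.0 at its highest. Detection values were not used, so for dim genes such as Postn, Speer8-ps1, Mir99a and Cttnbp2nl signal over background is unknown.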
